A study of Homo sapiens with 2 samples.

Results

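The genes of 7 other ETS factors of blood cells, ETS1, FLI1, SPI1, GABPA, ELF1, ERG and ETS2, were examined for peaks of HA-tagged ETV6 in Reh cells. A peak counted as a member when its summit lay in the hg19 span of the gene widened by 20 kb on each side, and 484 of the 315787 deposited peaks did so. Position alone chose these peaks, while the 7 genes were chosen with earlier results of these data known. ERG held 314 of the 484, ETS2 held 56, FLI1 46, ETS1 34, SPI1 20, ELF1 9 and GABPA 5. Reh is an established human pre-B leukaemia line with the t(12;21) translocation, which fuses ETV6 to RUNX1. Cells of 1 arm carried the lentiviral vector pCCL ETV6-HA and cells of the other arm pCCL ETV6 without a tag, and both arms went through anti-HA magnetic beads and sequencing as 1 pool each. The titles call each arm pooled, although triplicates are mentioned in the design text. All cells thus held added ETV6 as well as the translocation, and the promoter of the vector is not given in the sources used here. The peak list belongs to the tagged pool. A separate level of the untagged pool at these genes was not analysed here, and with 1 pool there was no replicate spread and no test between the arms.

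ETS proteins share a winged helix-turn-helix DNA-binding domain that reads a GGAA core. ETV6 is mainly a repressor in this family, and it also carries a pointed domain through which it forms polymers. ETS1 and ETS2 are close relatives that act mainly as activators, FLI1 and ERG form another close pair needed in blood stem cells and megakaryocytes, and SPI1 encodes PU.1, which drives myeloid and early B-cell fates. GABPA encodes the DNA-binding subunit of GABP, a regulator of housekeeping promoters, and ELF1 is an activator in lymphoid cells. On the chromosomes the pairs are others, with ETS1 next to FLI1 on chromosome 11 and ERG next to ETS2 on chromosome 21. Because the proteins read similar sites, the question here was how tagged ETV6 peaks were spread over the genes of its own family.

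The promoter letters that RefSeq gives for members, on build GRCh38.p14, are shown because they are where the core sequence read by ETS factors could meet a promoter peak. RefSeq promoters were matched by symbol for 4 of the 7 genes, with 10 promoters in all, and the outermost promoter of each gene is printed as the 250 bases before the gene start, read in the direction of transcription. Capitals mark the core GGAA, or TTCC for the same core on the other strand. The peaks are in hg19 and no coordinate was carried over, so no peak is placed on these letters.

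GABPA, chr21:25734722-25734971, plus strand: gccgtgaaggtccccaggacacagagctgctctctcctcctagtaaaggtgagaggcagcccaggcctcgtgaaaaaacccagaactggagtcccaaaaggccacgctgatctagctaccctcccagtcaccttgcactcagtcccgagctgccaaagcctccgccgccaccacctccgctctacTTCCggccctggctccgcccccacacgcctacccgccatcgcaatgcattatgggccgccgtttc
ELF1, chr13:41061387-41061636, minus strand: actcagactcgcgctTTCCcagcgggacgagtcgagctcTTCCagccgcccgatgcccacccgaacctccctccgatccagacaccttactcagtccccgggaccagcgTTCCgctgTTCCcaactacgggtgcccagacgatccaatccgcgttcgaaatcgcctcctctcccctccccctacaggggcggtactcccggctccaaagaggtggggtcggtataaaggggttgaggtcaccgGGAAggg
ERG, chr21:38660668-38660917, minus strand: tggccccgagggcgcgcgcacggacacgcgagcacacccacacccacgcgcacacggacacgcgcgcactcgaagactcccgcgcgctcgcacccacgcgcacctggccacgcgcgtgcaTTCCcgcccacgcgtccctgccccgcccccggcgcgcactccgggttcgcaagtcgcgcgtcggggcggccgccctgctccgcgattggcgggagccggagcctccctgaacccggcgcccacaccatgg
ETS2, chr21:38804933-38805182, plus strand: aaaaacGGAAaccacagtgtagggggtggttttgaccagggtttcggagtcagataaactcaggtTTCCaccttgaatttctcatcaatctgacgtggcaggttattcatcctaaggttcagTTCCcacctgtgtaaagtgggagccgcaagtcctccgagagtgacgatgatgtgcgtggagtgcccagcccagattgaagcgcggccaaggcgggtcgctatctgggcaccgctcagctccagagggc

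The core was present in all 4 printed promoters, 5 times in that of ELF1, 3 times in that of ETS2 and 1 time each in those of GABPA and ERG. Among the promoters not printed, its count ran from 0 in 1 of ELF1 to 6 in that of ETS2. It was also in 92.7% of 34943 RefSeq promoters of the same length, searched on both strands. The longer form CCGGAA, or TTCCGG on the other strand, which contains the core, was in 14.5% of them and in 1 of the 4, that of GABPA. A match is a run of letters only. In the peak list, measured from the outer 5′ end of each hg19 span, no summit lay within 2 kb of the GABPA or the ELF1 end, while 2 summits did so at each of ERG and ETS2. At the genes without a printed promoter, 3 summits lay within 2 kb of the SPI1 end and 2 each within 2 kb of the ETS1 and FLI1 ends. Whether each hg19 end lies at the printed promoter was not determined, because the builds differ. A printed promoter may thus lie away from that end or outside the window. Alternative start sites inside the genes were not examined.

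Peak strength is given here as the number of reads piled up at the summit, which was recovered from the deposited fold enrichment and p-value and which was at least 12 in the whole list. Most peaks rose over the same background of 4.29 reads, called the shared background below, and 1 read then changed the fold enrichment by 0.189. Fold enrichment and q are the authors' values for each peak. The list holds peaks down to a q of 0.1, and most members stood near its lower end. The lowest had 12 reads, the tallest 32, and the windows' median was 14 reads at ETS1, FLI1, SPI1, GABPA and ELF1 and 15 at ERG and ETS2, against 14 over the whole list. Intervals are exact 95% intervals over peaks and cover counting error only. Peaks cluster, so the true uncertainty is larger, and each window was therefore also set against consecutive stretches of its own length along its chromosome.

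On chromosome 11 all 3 windows, ETS1, FLI1 and SPI1, were denser in peaks than the rest of the chromosome. On chromosome 21 the ERG and ETS2 windows were denser and the GABPA window was sparser than the rest. The interval for ELF1 on chromosome 13 included equal density. With the 1 Mb on each side as the reference instead, only the FLI1 window kept an interval that lay wholly above 1, and no window had one wholly below 1.

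**Figure D1:**
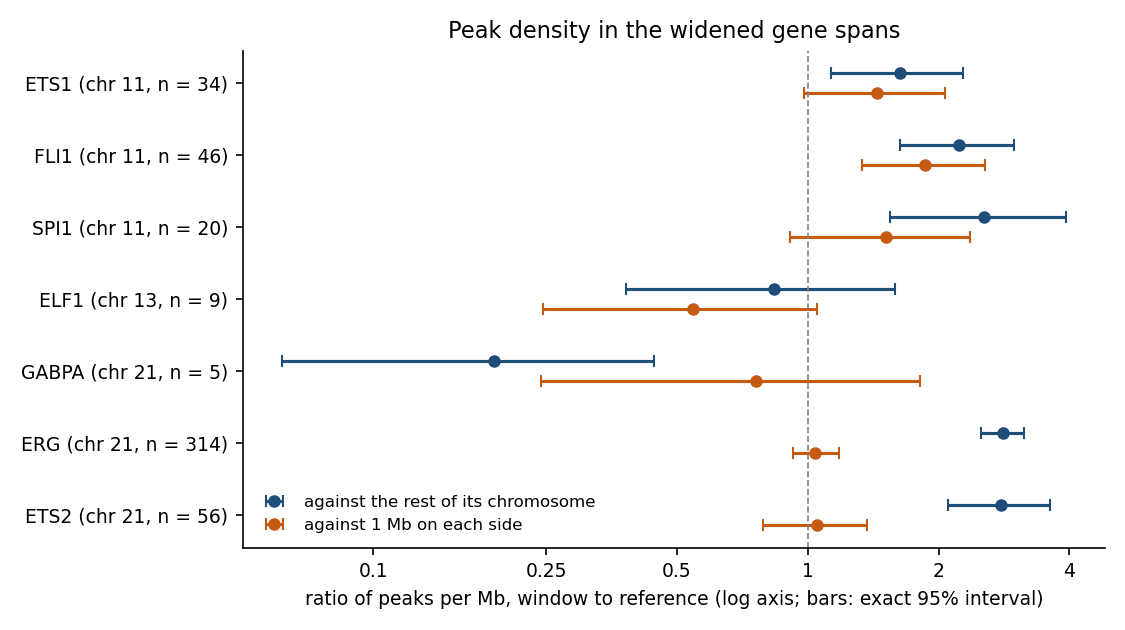
Ratio of peaks per Mb in each widened gene span to the rest of its chromosome (blue) and to the 1 Mb on each side (orange), on a log axis, with exact 95% intervals. The ERG and ETS2 points move from 2.81 and 2.78 to 1.04 and 1.05 with the nearby reference, and the FLI1 interval stays above 1 with both.

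The FLI1 window, 166.7 kb at chr11:128536430-128703162, held 46 peaks or 275.9 per Mb. The rest of chromosome 11 had 123.6 per Mb, a ratio of 2.23 (1.63 to 2.98). The 1 Mb on each side, with the ETS1 window taken out, had 148 per Mb, a ratio of 1.86 (1.33 to 2.56). Of 808 stretches of the same length along the chromosome, 5.45% held at least 46 peaks, and the median stretch held 19. FLI1 thus stood above its surroundings beyond counting error over peaks, and other stretches of the chromosome were as dense.

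Peaks were spread over all of FLI1 rather than gathered at its start. The gene itself held 36 peaks, the 20 kb before its 5′ end 8 and the 20 kb after its 3′ end 2. Cut into 3 equal parts from the 5′ end, the gene held 10, 9 and 17 peaks, with intervals of 114 to 435, 97.4 to 404 and 234 to 644 per Mb that overlap. The strongest peak of the window was also the one nearest to the 5′ end. It lay at chr11:128555079-128555243, with its summit 1290 bp before the end of the span, 19 reads, a fold enrichment of 3.78 and −log10 q of 3.8. The next 3 were tied at 17 reads and −log10 q of 2.76. Of these, chr11:128635829-128636007 and chr11:128666368-128666595 lay 79.5 and 110 kb into the gene, and chr11:128683762-128683986 lay just beyond its 3′ end. None of the 46 peaks reached 20 reads (0%, 0 to 7.71). That interval includes the 1.55% of the rest of chromosome 11 and the 2.66% of the whole list, so no difference was detectable.

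ETS1, the neighbour of FLI1, had a similar but less certain excess. Its window, 168.8 kb at chr11:128308656-128477453, held 34 peaks or 201.4 per Mb. The ratio to the rest of the chromosome was 1.63 (1.13 to 2.28) and to the 1 Mb on each side 1.44 (0.978 to 2.07). Of 798 stretches of that length, 20.6% held at least as many. The density at FLI1 was 1.37 times that at ETS1, with an interval of 0.86 to 2.2 that included equal density. The 58.98 kb between both windows held 13 peaks or 220.4 per Mb, a level between those of the 2 windows.

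ETS1 held the tallest of all 484 peaks. This peak, at chr11:128348292-128348605, had 32 reads, a fold enrichment of 6.24 and −log10 q of 13.5 at the shared background, and was 314 bp wide. It lay inside the gene, 109 kb from the 5′ end and thus near the 3′ end of a span of 128.8 kb. Of the 16686 peaks on chromosome 11, 39 (0.234%) were as tall or taller, and of the whole list 1449 (0.459%). The other 33 peaks of the window had at most 18 reads. The next by q, at chr11:128371070-128371213, had 18 reads, and that at chr11:128431085-128431216 had 17. The peak nearest to the 5′ end, at chr11:128457753-128457907, had its summit 383 bp before it, with 16 reads and −log10 q of 2.32, and no other window had a summit so close to the end of its span. Between 40.1 and 68.9 kb into the gene no summit was listed, and this 28.8 kb was the longest empty run of the window.

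SPI1 had the highest density of the 3 windows on chromosome 11, in the smallest of them. The 63.72 kb at chr11:47356411-47420127 held 20 peaks or 313.9 per Mb, 2.54 times the rest of the chromosome (1.55 to 3.92). Its surroundings were dense as well. The 1 Mb on each side had 208.5 per Mb, which gave a ratio of 1.51 (0.91 to 2.36), and 4.82% of 2114 stretches held at least 20 peaks. The gene itself held 7 peaks, the 20 kb before its 5′ end 6 and the 20 kb after its 3′ end 7. In RefSeq's gene order MYBPC3 and SLC39A13 are the protein-coding genes on either side, and how much of the flanks belongs to them was not determined.

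The SPI1 peaks fell into groups. Before the 5′ end, 3 summits lay close together, 1080, 1543 and 1802 bp upstream, with 13, 14 and 17 reads. A 4th peak, at chr11:47404755-47404931, lay 4.72 kb upstream with 18 reads and −log10 q of 3.26. Near the 3′ end of the gene, 4 summits lay 20.2 to 22 kb from the 5′ end, with 20, 13, 17 and 16 reads, the last 2 over raised backgrounds of 6.58 and 4.7. The strongest of the window was among them, at chr11:47379704-47380106, with a fold enrichment of 3.97, −log10 q of 4.4 and, at 403 bp, more than 3 times the median width of 114.5 bp in this window. PU.1 is known for a distal upstream enhancer. The farthest upstream peak, 16.3 kb before the 5′ end, had 13 reads and −log10 q of 1.33, and whether it overlaps that enhancer was not tested.

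ERG held more peaks than the other 6 genes together. Its window of 334.5 kb, chr21:39719183-40053704, had 314 peaks or 938.7 per Mb, and the peaks covered 13.8% of its length. The rest of chromosome 21 had 333.5 per Mb, a ratio of 2.81 (2.51 to 3.15). The ETS2 window next to it, 59.65 kb at chr21:40157231-40216879, had 56 peaks or 938.8 per Mb, 2.78 times the rest of the chromosome (2.1 to 3.61). The ratio of ETS2 to ERG was 1.0 (0.739 to 1.33), and the 103.5 kb between them had 743.8 per Mb.

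Both genes lie in a stretch of chromosome 21 that was dense throughout. The 1 Mb on each side had 899.3 peaks per Mb around ERG and 895.2 around ETS2, with the windows taken out, and the ratios to it were 1.04 (0.923 to 1.18) and 1.05 (0.788 to 1.37). Against the whole distal part from 37 Mb on, a reference added after the data were seen, both ratios were 1.04. The excess of ERG and ETS2 over their chromosome was thus equally present in the sequence around them, within the intervals given. Along the chromosome, 13% of 115 stretches as long as the ERG window and 15% of 648 stretches as long as the ETS2 window held at least as many peaks.

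**Figure D2:**
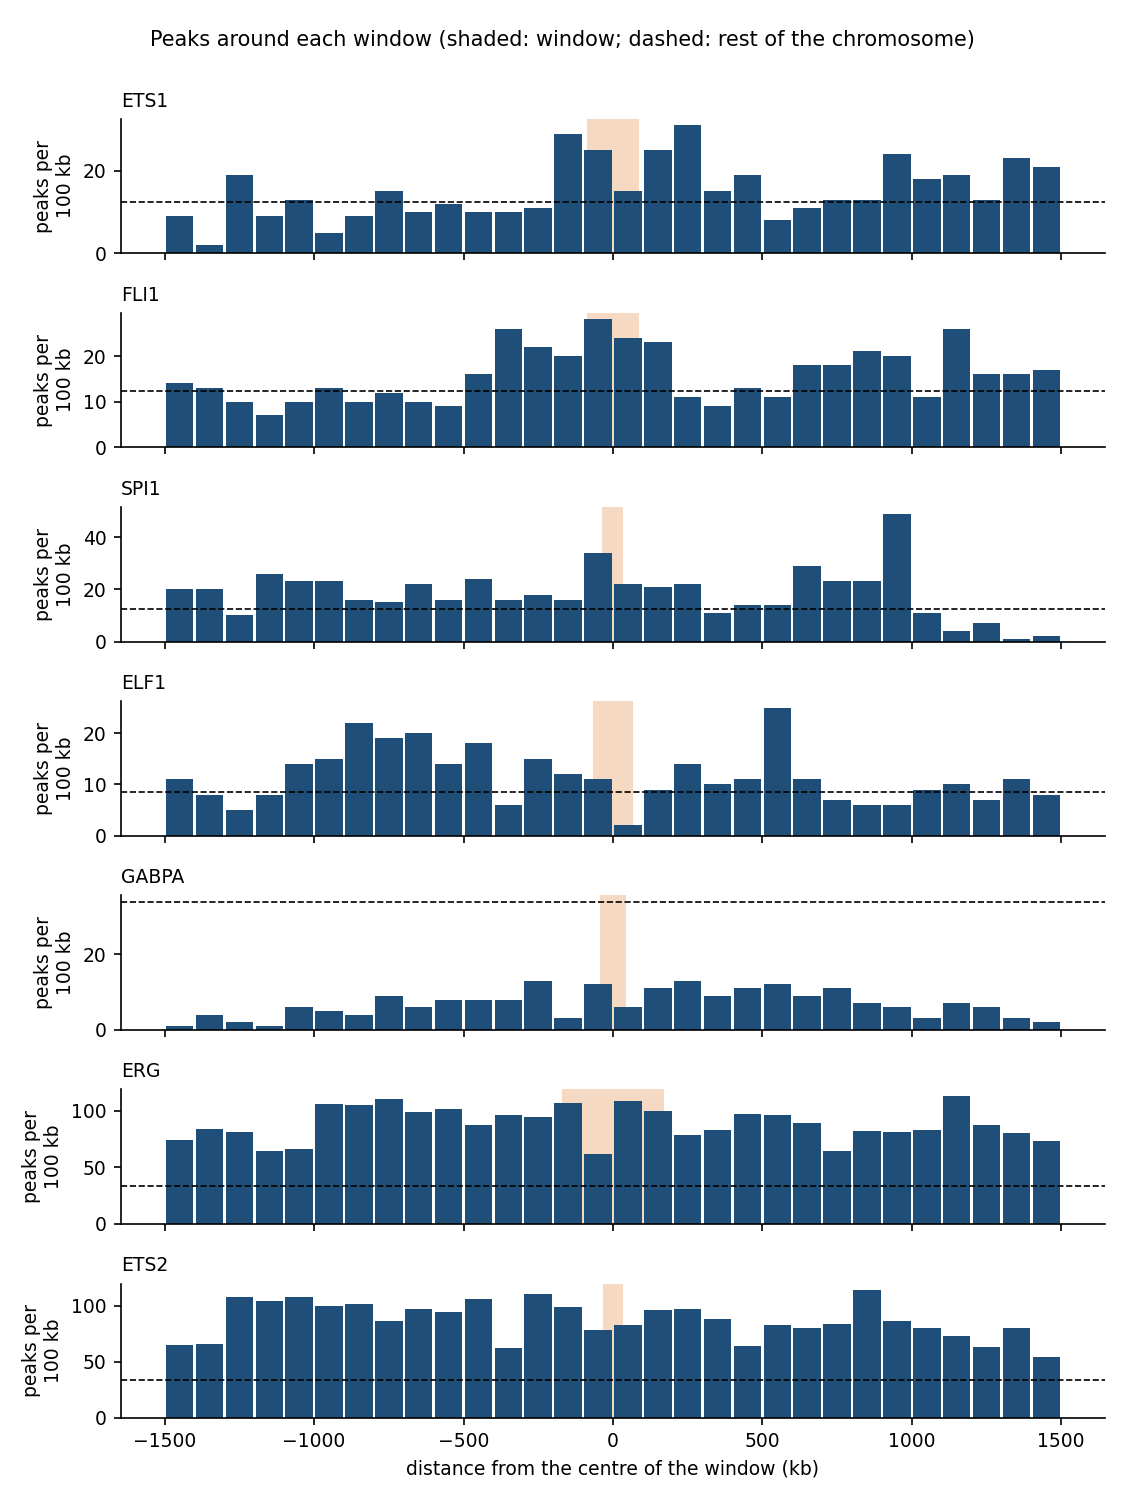
Peaks per 100 kb in the 1500 kb on each side of the centre of each window, with the window shaded and the density of the rest of the chromosome dashed. Bars around ERG and ETS2 lie above the dashed line in every bin shown, bars around GABPA lie below it in every bin, and those of ETS1 and FLI1 overlap because the genes are neighbours.

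Inside ERG, peaks were densest at the 5′ part. The first of 3 equal parts of the gene held 112 peaks (939 to 1370 per Mb), the middle part 73 (583 to 935) and the last part 85 (692 to 1070). The intervals of the first and the middle part just failed to overlap, and those of the first and the last part overlapped. This split of the gene was made after the counts by window were known. The gene itself held 270 peaks, the 20 kb before its 5′ end 16 and the 20 kb after its 3′ end 28. The median distance between neighbouring summits was 0.702 kb, and the longest run without a summit was 9.62 kb. With peaks within 1000 bp of each other counted once, 89 of the 314 were left and the ratio to the chromosome was 2.05 (1.65 to 2.53).

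The 3 tallest ERG peaks stood in the 5′ part of the gene. The peak at chr21:40023638-40023974, 9.95 kb from the 5′ end, had 30 reads, a fold enrichment of 5.86 and −log10 q of 11.8. The peak at chr21:39994270-39994535, 39.3 kb from it, had 31 reads over a raised background of 5.17, with a fold enrichment of 5.19 and −log10 q of 10.5. The third by q, at chr21:39948558-39948771 and 85 kb from the 5′ end, had 24 reads. Of 13103 peaks on chromosome 21, 197 (1.5%) had at least 31 reads. A further 5 ERG peaks had −log10 q of at least 5. Of these, chr21:39750349-39750569 lay 283 kb from the 5′ end, near the 3′ end of the span, with 23 reads, and chr21:39953015-39953174 also had 23. The other 3, at chr21:39996020-39996174, chr21:39881452-39881707 and chr21:40015872-40016133, had 22, 21 and 21 reads.

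The summit nearest to the 5′ end of the ERG span lay 1698 bp before it, in a peak of 15 reads, the median of the window, and −log10 q of 1.94 at chr21:40035340-40035432. Within 5 kb of this end lay 6 summits with 14 to 19 reads. At least 20 reads were reached by 23 of the 314 ERG peaks (7.32%, 4.7 to 10.8), against 2.66% of the whole list and 11.1% of the rest of chromosome 21. The other peaks of that chromosome from 37 Mb on had 8.82%, inside that interval. Of the 23, 20 lay in the gene, 2 before its 5′ end and 1 after its 3′ end, where all 314 peaks divided into 270, 16 and 28. The first 100 kb of the gene held 12 of the 20. The first of its 3 equal parts, slightly shorter than 100 kb, held 112 of the 270. Whether tall peaks were placed differently from the others was not tested. The 23 had a median width of 228 bp, where ERG peaks below 20 reads had 126 bp. This was not particular to ERG. The 4 tall ETS2 peaks had 154 bp against 120 bp, and the 1 tall peak each of ETS1 and SPI1 was also wider than the rest. Width by height was not compared outside the windows.

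The gene ETS2 itself, 19.65 kb long, held 16 peaks, the 20 kb before it 22 and the 20 kb after it 18. At least 20 reads were reached by 4 of the 56 (7.14%, 1.98 to 17.3), an interval that includes the 11.1% of the rest of chromosome 21. All 4 lay in the flanks, and whether the gene differs from its flanks was not tested. The 2 tallest had 21 reads and −log10 q of 5.03. They lay at chr21:40206770-40206916 and chr21:40210130-40210262, 29.6 and 33 kb from the 5′ end, beyond the 3′ end of the gene. The third, at chr21:40202706-40202867, also lay beyond it, with 20 reads, and 1 more peak of 20 reads lay before the 5′ end. The summit nearest to the 5′ end, 1122 bp before it, belonged to a peak of 14 reads at chr21:40176088-40176157 over a raised background of 5.17.

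GABPA lies on the same chromosome as ERG and ETS2 and had the fewest peaks of the 7. Its window of 77.51 kb, chr21:27087257-27164771, held 5 peaks or 64.5 per Mb, 0.19 times the rest of chromosome 21 (0.0617 to 0.444). That ratio depends on the dense distal part of the chromosome. The 1 Mb on each side had 85 per Mb, a ratio of 0.759 (0.243 to 1.81), and against the chromosome from 15 to 36 Mb, a reference added after the data were seen, the ratio was 0.89 (0.288 to 2.08). The median stretch of this length on chromosome 21 held 7 peaks, and 61.9% of 499 stretches held at least 5.

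All 5 GABPA peaks were low. The first, at chr21:27104688-27104746, lay 2.53 kb before the 5′ end with 15 reads, and a peak of 13 reads lay beside it at 2.1 kb. Inside the gene, peaks of 14 reads each lay 8.19 kb and 15.4 kb from the 5′ end, and the remaining peak, of 13 reads, lay 15.7 kb before it. The rest of the window, 42.1 kb to its far limit, held no summit. In RefSeq, ATP5PF overlaps GABPA. The promoter printed above, with its TTCCGG, is the outermost of GABPA, and the nearest listed summit was 2097 bp before the 5′ end of the hg19 span. How far that promoter lies from this end was not determined.

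ELF1 did not differ from its chromosome beyond counting error. Its window of 127.5 kb, chr13:41486056-41613558, held 9 peaks or 70.59 per Mb, against 84.58 on the rest of chromosome 13, a ratio of 0.835 (0.381 to 1.59). The ratio to the 1 Mb on each side was 0.545 (0.246 to 1.05). Of 751 stretches of that length 52.3% held at least 9, and the median held 9. The strongest peak, at chr13:41538670-41538816, had 16 reads, a fold enrichment of 3.22 and −log10 q of 2.32 and lay 54.8 kb into the gene. The next 3 were tied at 15 reads and −log10 q of 1.94. Of these, chr13:41489524-41489635 and chr13:41504708-41504800 lay beyond the 3′ end and chr13:41579104-41579181 lay inside the gene.

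The 5′ end of the hg19 span of ELF1 had no peak nearby. The closest summit, that of the tied peak inside the gene, lay 14.4 kb from it, and the closest upstream lay 14.8 kb before it with 13 reads. The longest run without a summit in this window was 31 kb, between the 42.1 kb at GABPA and the 28.8 kb at ETS1, and the other 4 windows had 4.59 to 15.9 kb.

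**Figure D3:**
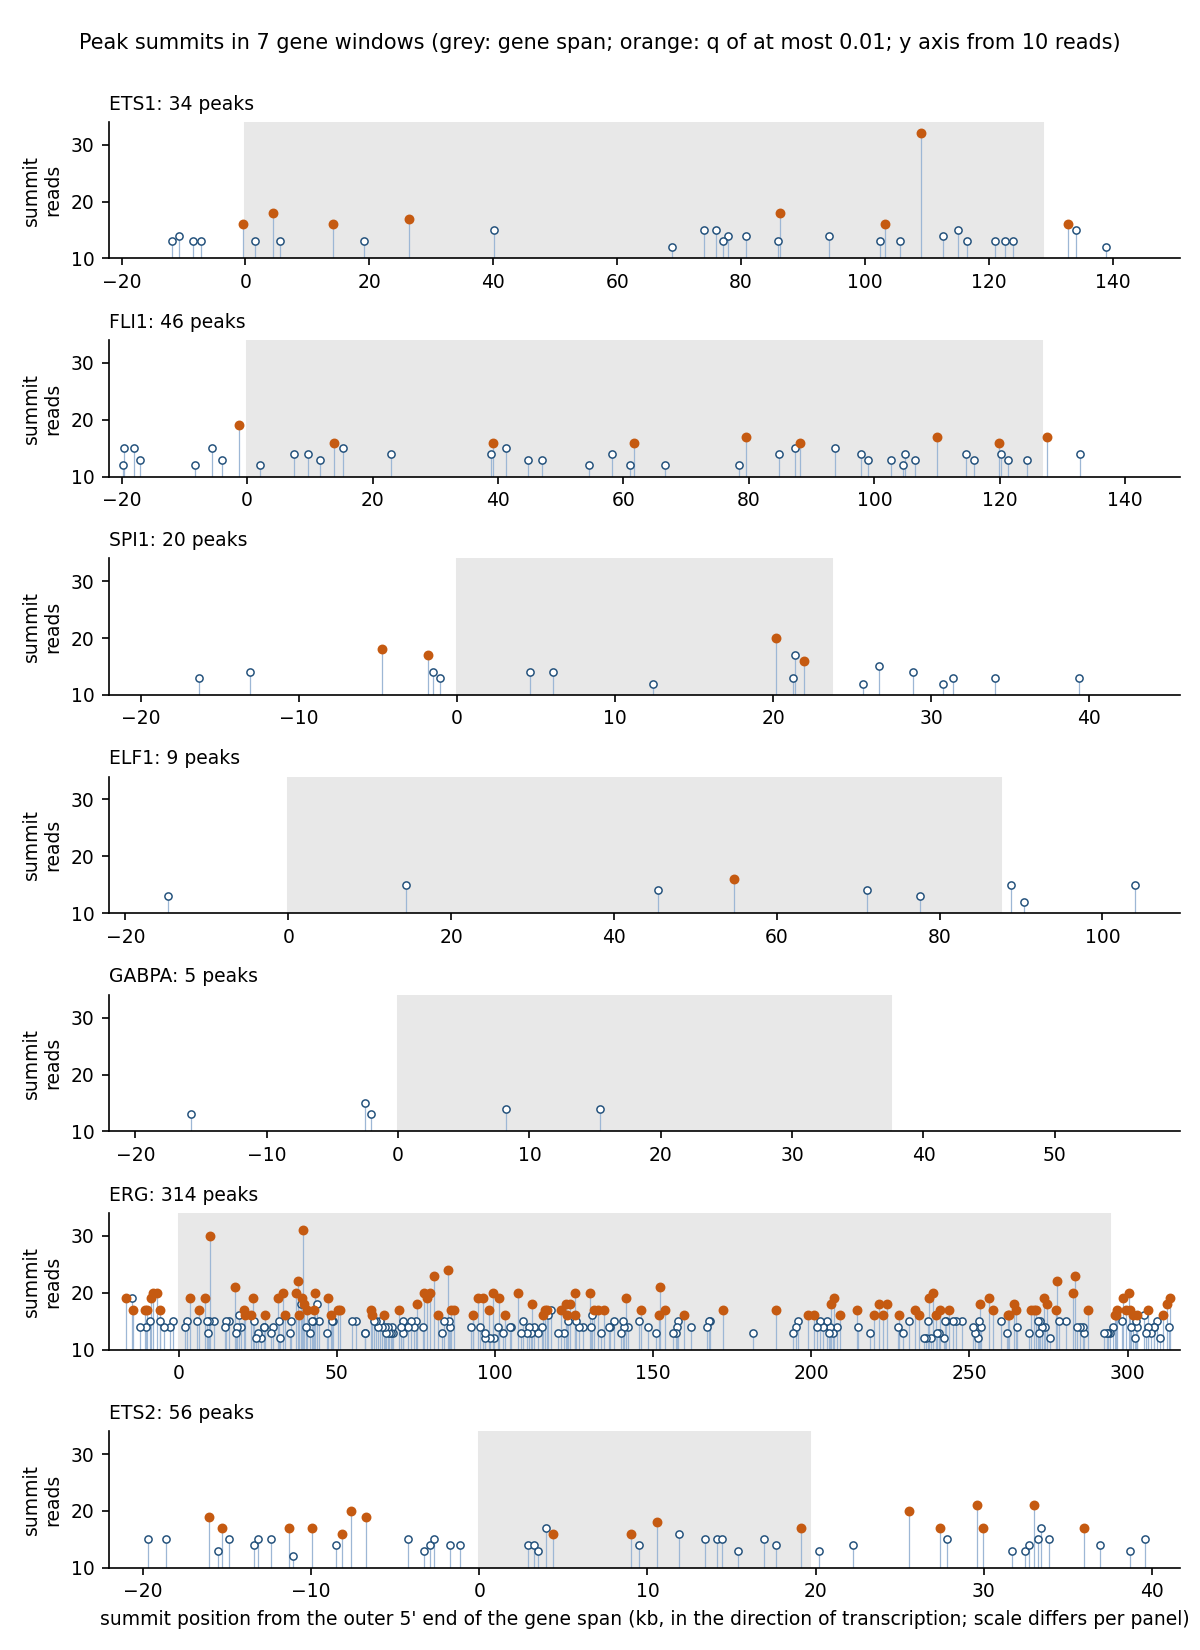
Each member peak by its distance from the outer 5′ end of the gene span (x axis, kb) and its reads at the summit (y axis, from 10 reads), with the gene span in grey and peaks of q at most 0.01 in orange. ETS1 shows 1 peak of 32 reads near its 3′ end, ERG shows 30 and 31 reads in its 5′ part, and ELF1 and GABPA have 9 and 5 peaks below 17 reads.

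The choice by position did not use the strength of the peaks, which is compared here by the share with a low q. A q of at most 0.01 was reached by 20.7% of the whole list, by 18.9% of the peaks on chromosome 11 outside the windows, by 18.3% on chromosome 13 and by 40.9% on chromosome 21. At ETS1 8 of 34 peaks passed (23.5%, 10.7 to 41.2), at FLI1 9 of 46 (19.6%, 9.36 to 33.9) and at SPI1 4 of 20 (20%, 5.73 to 43.7). Each of these 3 intervals includes the share of chromosome 11, so no difference in strength was detectable in the windows that held more peaks. At ELF1 1 of 9 passed (11.1%, 0.281 to 48.2), an interval too wide to compare closely.

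At ERG 125 of 314 peaks passed (39.8%, 34.4 to 45.5) and at ETS2 17 of 56 (30.4%, 18.8 to 44.1). Both intervals include the share of chromosome 21, and that of ERG lies wholly above the share of the whole list. At GABPA 0 of 5 passed, with an upper bound of 52.2% that includes the share of chromosome 21. The 1517 other peaks from 15 to 36 Mb of that chromosome, where GABPA lies, had a share of 17.1% (15.2 to 19.1), and the 9697 from 37 Mb on, where ERG and ETS2 lie, had 42% (41 to 43).

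By reads, tall peaks were a smaller share at ERG and ETS2 together than on the rest of their chromosome, but not detectably smaller than from 37 Mb on. At least 20 reads were reached by 27 of their 370 peaks (7.3%, 4.86 to 10.4), an interval wholly below the 11.1% of the rest of chromosome 21. It includes the 8.82% of the other peaks from 37 Mb on. From 15 to 36 Mb the share was 1.45%, so the peaks outside both stretches had a share above 11.1%. ETS1 and SPI1 each held 1 peak of that height, and FLI1, GABPA and ELF1 held 0. Together these 5 windows had 2 of 114 (1.75%, 0.213 to 6.19). That interval includes the 1.55% of the rest of chromosome 11, the 1.8% of chromosome 13 and the 1.45% from 15 to 36 Mb of chromosome 21.

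**Figure D4:**
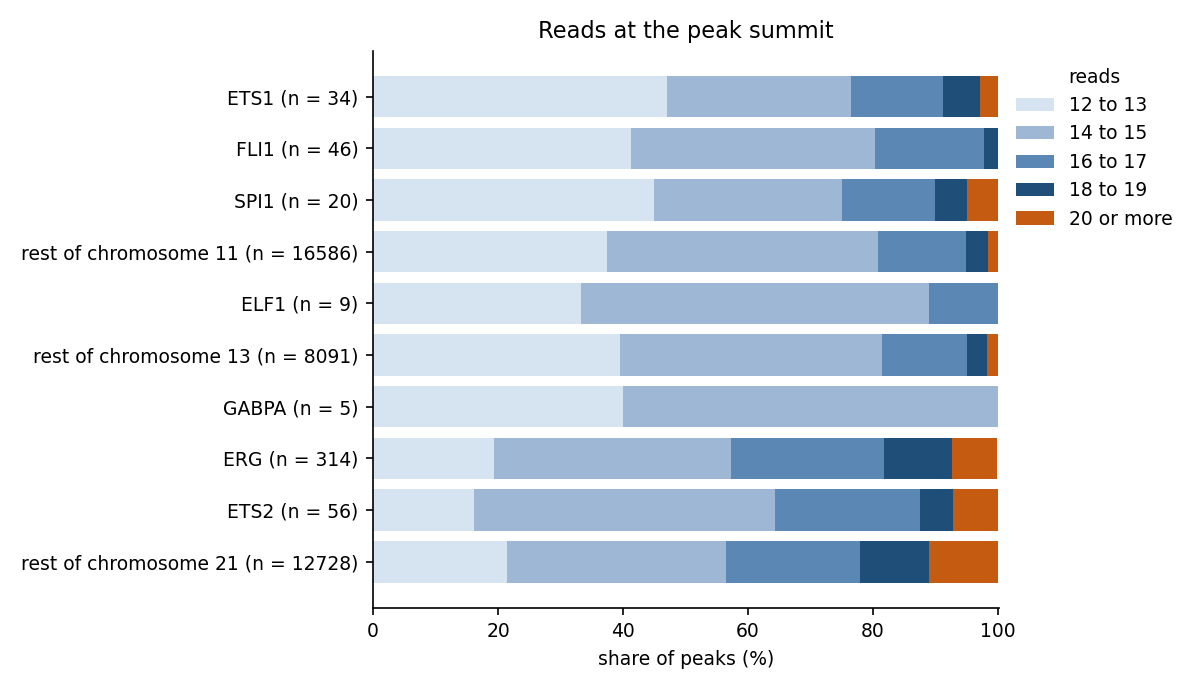
Share of peaks (x axis, %) by reads at the summit for the 7 windows and for the rest of their chromosomes. Peaks of 20 or more reads made up 7.32% at ERG (4.7 to 10.8) and 7.14% at ETS2 (1.98 to 17.3). The rest of chromosome 21 had 11.1%, which the ETS2 interval includes. Peaks of 14 to 15 reads made up 48.2% of the 56 at ETS2 and 34.9% on the rest of chromosome 21, without an interval. Among the other peaks from 37 Mb on, not drawn, 8.82% had 20 or more reads.

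The background under the peaks was also raised more often at ERG and ETS2. Over the whole list 4.19% of peaks had a local background above the shared level. In the ERG and ETS2 windows 55 of 370 peaks did (14.9%, 11.4 to 18.9), against 14.4% of the other peaks from 37 Mb on. In the other 5 windows 6 of 114 did (5.26%, 1.96 to 11.1). The highest background under any ERG peak was 7.52 reads, and every GABPA and ELF1 peak stood at the shared 4.29. The part of this background in the counts of ERG and ETS2 peaks was not tested.

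At the edges of the windows, the last peaks inside had 12 to 19 reads and the first peaks outside 12 to 26, and the tallest of these lay 0.304 kb beyond the upstream limit of the ERG window.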

How the data were processed

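Chromatin immunoprecipitation sequencing with anti-HA beads was made from 1 pool of Reh cells with tagged ETV6 and 1 with untagged ETV6, grouped by their transduction labels. The submitters' processing notes name Bowtie2 2.2.3, MACS2 2.1.1.20160309 and hg19. The labels call the untagged pool the negative control, and whether MACS2 was given it is not given in the sources used here. The authors deposited 1 peak list in narrowPeak layout. Its deposited fold is a linear ratio of summit to local background, its deposited −log10 columns hold p and q with a q limit of 0.1, its deposited score is 10 times −log10 q and was not used, and the other deposited columns hold start, end and summit.

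Reads at the summit and background were solved from fold = (reads + 1)/(background + 1) and the Poisson tail, and came out whole within 0.05 for all but 1 peak of the list, not a member. This step was checked on simulated data. A background within 0.005 of 4.29 counted as shared. Density was compared with the rest of the chromosome between its first and last peak. Gene spans came with the choice of genes, and strands from RefSeq or textbook knowledge. The library totals were not used, so depth is given only at summits. The 7 genes and the alternatives were chosen with earlier results of these data known. The named peaks are, per gene, the 3 strongest by −log10 q, the one nearest the 5′ end and those with −log10 q of at least 5. Others are named for their position after their values were seen. Other ETS family genes were planned and not analysed here, because the annotation used was GRCh38.p14. Scripts ran in Python 3.11.15. Intervals came from scipy 1.17.1, tables from pandas 2.3.3 with numpy 2.4.6, and plots from matplotlib 3.10.9.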

Additional observations from a re-analysis of the deposited data

How the results depend on the processing

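Of 59 alternatives to the 7 density ratios, 49 stayed inside the interval of the reported ratio, 10 lay outside it and 0 changed sides of 1 where the reported interval excluded 1. The 1 Mb on each side as reference gave 1.51 at SPI1, 0.759 at GABPA, 1.04 at ERG and 1.05 at ETS2. Parts of chromosome 21, added after the data were seen, gave 0.89 at GABPA, 1.04 at ERG and 1.04 at ETS2. Peaks with q of at most 0.01 gave 2.07 at ETS2 and, with no peak left in the window, 0 at GABPA. Merging peaks within 1000 bp gave 2.05 at ERG. Widening the spans by 50 kb or not at all, q of at most 0.05, leaving out gaps over 500 kb and counting any overlap kept all 7 ratios inside their intervals. Intervals that excluded 1 came to include it at SPI1 without widening (lower end 0.958), at ETS1 and SPI1 with q of at most 0.01 (lower ends 0.874 and 0.73), at GABPA with merged peaks (upper end 1.01) and, with nearby references, at every gene but FLI1 that had excluded it. The share of peaks with q of at most 0.01 stayed inside its interval with spans widened by 50 kb at all 7 genes, and the looser q of 0.05 moved it at all 7 by construction. No paired analysis was possible because each arm is 1 pool and 1 peak list was used, and for the same reason no replicate could be left out. The counts at GABPA and ELF1, of 5 and 9 peaks, allow only wide intervals.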
